A study of Mus musculus with 3 samples.

Results

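Imprinted genes are transcribed mainly from the copy inherited from one parent, and many of them set growth before and after birth. The 10 genes described here are a list of imprinted genes of growth control, taken from the table by name and not by a threshold on their values: H19, Meg3, Rian, Dlk1, Peg3, Plagl1, Mest, Peg10, Cdkn1c and Grb10. The list was drawn up with earlier results of these data known. All 10 were found by symbol among the 56833 genes of the table, and all 10 had reads in every library. As a rule, genes expressed from the paternal copy promote growth (Dlk1, Mest, Peg10) and genes expressed from the maternal copy restrain it (H19, Cdkn1c, Grb10). Plagl1, which is paternally expressed, suppresses growth in cell culture. Several of the 10 are highly expressed in fetal mesenchyme and decline after birth, as part of what has been described as an imprinted gene network.

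The cells came from ankle synovium, the lining of the joint, of Efhd1CreER; Ai9 mice. In these mice a tamoxifen-dependent Cre recombinase driven from Efhd1 switches on the red reporter tdTomato, and sorted tdTomato-positive cells, which the labels call telocytes, were grown for 24 h on collagen-coated plates. Plate stiffness was 0.2 kPa, called soft below, 8 kPa, called intermediate, or 64 kPa, called stiff, and genotype, tissue, sorting and coating were the same in all groups. Each group was 1 library of poly(A)-selected RNA, so the differences below were not tested and have no replicates behind them, and differences between cultures cannot be told apart from differences between stiffness levels. How many animals or cultures went into a library is not given in the sources used here, and the age and sex of the mice are not given either.

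Values are normalized counts, that is, reads per gene over the size factor of the library. The soft library held 25487064 reads, the intermediate 28081600 and the stiff 26474862, and 1 read was worth 1.03, 0.943 and 1.03 normalized counts in that order. Log2 ratios between libraries were taken after adding 1 to each value, which understates the change of low genes. The intervals beside them are exact 95% Clopper-Pearson intervals of how the gene's reads divide between the libraries, and they hold counting error only. Fibroblast markers were high, with Pdgfra at 5118 to 6298 normalized counts, whereas Efhd1 itself had 10, 5 and 3 reads. A list of 12 macrophage markers, none of them at 0, summed to 29749 (soft), 36632 (intermediate) and 63852 (stiff) normalized counts, and 12 of the 12 were higher in the stiff than in the soft library. The sums of 5 endothelial markers were 52.3, 66.9 and 71.8 in the same order, and 3 erythroid markers had no read. Those of 5 mural markers were 643, 672 and 609, mostly Notch3, at 529, 601 and 512. The 8 fibroblast and telocyte markers summed to 281411, 334669 and 392839, and 5 of the 8 were higher in the stiff library. The 5 skeletal muscle markers, of which Myh4 was at 0, summed to 239, 394 and 715, mostly Acta1, and the 4 Schwann cell markers to 191, 175 and 127, mostly S100b. The part that such a shift in cell types has in the values below was not tested, and in bulk RNA fewer cells of a type and less RNA per cell cannot be told apart.

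Sequences at the start of some of the genes are shown first, because the promoter carries the allele-specific methylation of several of these genes. RefSeq promoters, on build GRCm38.p6 and running from 250 bases before to 50 bases after a start, matched 7 of the 10 genes (all but H19, Peg10 and Cdkn1c). They are printed for the 4 genes whose stiff to soft interval lay above 0, and for Rian, which lies next to Meg3 and whose stiff to soft interval included 0. Where a gene has several starts, the first window with the most CpG dinucleotides is shown. Capitals mark matches on either strand to 5 motifs: the TATA box with the letters TATAAA, the TEAD motif with the letters GGAATG, the Plagl1 motif with the letters GGGGCCCC, the YY1 motif with the letters GCCATNTT, and the CArG box, which is bound by SRF.
Meg3 promoter, chr12:109540746-109541045, plus strand: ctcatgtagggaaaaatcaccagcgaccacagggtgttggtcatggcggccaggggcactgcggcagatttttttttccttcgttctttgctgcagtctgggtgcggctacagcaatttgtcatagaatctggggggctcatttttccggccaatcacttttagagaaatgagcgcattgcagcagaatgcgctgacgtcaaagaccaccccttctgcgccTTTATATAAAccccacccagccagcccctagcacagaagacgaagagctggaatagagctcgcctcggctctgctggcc
Rian promoter, chr12:109603695-109603994, plus strand: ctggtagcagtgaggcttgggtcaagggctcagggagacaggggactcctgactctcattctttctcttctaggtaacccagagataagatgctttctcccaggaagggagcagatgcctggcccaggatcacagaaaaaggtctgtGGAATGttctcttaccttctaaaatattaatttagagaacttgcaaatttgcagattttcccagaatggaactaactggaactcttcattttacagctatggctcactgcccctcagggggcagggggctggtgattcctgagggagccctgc
Plagl1 promoter, chr10:13090582-13090881, plus strand: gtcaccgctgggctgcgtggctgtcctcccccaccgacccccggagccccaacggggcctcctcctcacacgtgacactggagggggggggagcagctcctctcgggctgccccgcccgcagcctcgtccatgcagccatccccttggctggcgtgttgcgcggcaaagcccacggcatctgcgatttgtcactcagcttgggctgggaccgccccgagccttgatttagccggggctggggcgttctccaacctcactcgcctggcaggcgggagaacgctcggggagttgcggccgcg
Mest promoter, chr6:30737800-30738099, plus strand: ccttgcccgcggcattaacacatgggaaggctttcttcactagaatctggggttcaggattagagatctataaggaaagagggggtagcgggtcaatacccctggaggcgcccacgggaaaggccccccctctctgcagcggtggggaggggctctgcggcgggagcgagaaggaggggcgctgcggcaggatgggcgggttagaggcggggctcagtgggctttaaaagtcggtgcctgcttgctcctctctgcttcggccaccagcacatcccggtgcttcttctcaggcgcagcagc
Grb10 promoter, chr11:12037371-12037670, minus strand: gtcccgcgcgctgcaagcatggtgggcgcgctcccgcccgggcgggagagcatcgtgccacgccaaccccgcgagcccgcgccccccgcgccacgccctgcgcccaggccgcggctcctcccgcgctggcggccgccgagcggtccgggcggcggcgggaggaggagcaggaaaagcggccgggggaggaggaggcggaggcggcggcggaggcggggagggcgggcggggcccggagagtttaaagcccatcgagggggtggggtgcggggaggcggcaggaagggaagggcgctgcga

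Of these 5 windows, the Meg3 promoter held TATAAA on both strands, in overlapping matches that begin 29 and 25 bases before the start. The Rian window held GGAATG 103 bases before its annotated start. The starts are those of RefSeq, and whether transcription begins there in these cells was not measured. Among 32851 mouse promoters of this length, 13.6% held TATAAA, 14.7% GGAATG, 1.08% GGGGCCCC, 6.05% GCCATNTT and 1.63% a CArG box. The windows of Plagl1, Mest and Grb10 held none of the 5 motifs. GGGGCCCC was found in 1 of the 11 windows of the 7 genes, that of Peg3, 201 bases before the start, where GGAATG also lay 84 bases before it. A window at another Meg3 start held a CArG box 94 bases before that start. The windows also differed in CpG dinucleotides, the sites of DNA methylation, with 45 in that of Grb10, 26 in Plagl1, 17 in Mest, 13 in Meg3 and 0 in Rian, beside a median of 7 over all promoters.

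Some of these transcripts also carry microRNAs, which are cut from hairpins inside the transcript. The mature forms of those in H19, Mest and Meg3, the hosts whose RNA differed between stiff and soft, are shown with the seed (bases 2 to 8) in capitals.
mmu-miR-675-5p: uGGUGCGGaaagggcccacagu
mmu-miR-675-3p: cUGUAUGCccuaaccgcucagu
mmu-miR-335-5p: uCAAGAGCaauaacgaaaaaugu
mmu-miR-335-3p: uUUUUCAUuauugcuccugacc
mmu-miR-770-5p: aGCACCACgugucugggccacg
mmu-miR-770-3p: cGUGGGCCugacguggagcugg
mmu-miR-1906: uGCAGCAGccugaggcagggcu

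The miR-675 pair comes from H19, the miR-335 pair from Mest and the miR-770 pair and miR-1906 from Meg3. Over 13 mature microRNAs of 7 hairpins inside H19, Meg3, Rian and Mest, no seed occurred more than once. No read was assigned to any of the 7 hairpins in any library. Poly(A) selection and gene counting do not measure mature microRNAs, so the values below speak of the host transcripts only.

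In the comparison of stiff with soft plates, which spans the full range of stiffness, Meg3, Mest, Plagl1 and Grb10 were higher and H19 was lower beyond counting error. None of the 8 genes whose mean was 50 normalized counts or more reached a log2 ratio of 1 in size, a size passed by 3.6% of 11873 genes. With a smaller threshold of 0.5 and a mean of at least 10, which all 10 genes reached, Meg3, Mest and Plagl1 were higher and Cdkn1c and H19 lower. That made 3 of 10 higher, beside 13.4% of 14291 genes, and 2 of 10 lower, beside 6.89%. The interval lay above 0 for 4 of 10, beside 27.6% of all genes, and below 0 for 1 of 10, beside 22.8%. The median ratio over the 10 genes was 0.20, beside 0.0004 over all 14291 genes. It was 0.07 with the trend of ratios with transcript length and GC content subtracted, where 6 of the 10 genes were above 0 in place of 8, and 0.12 over those whose mean reached 100.

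**Figure D1:**
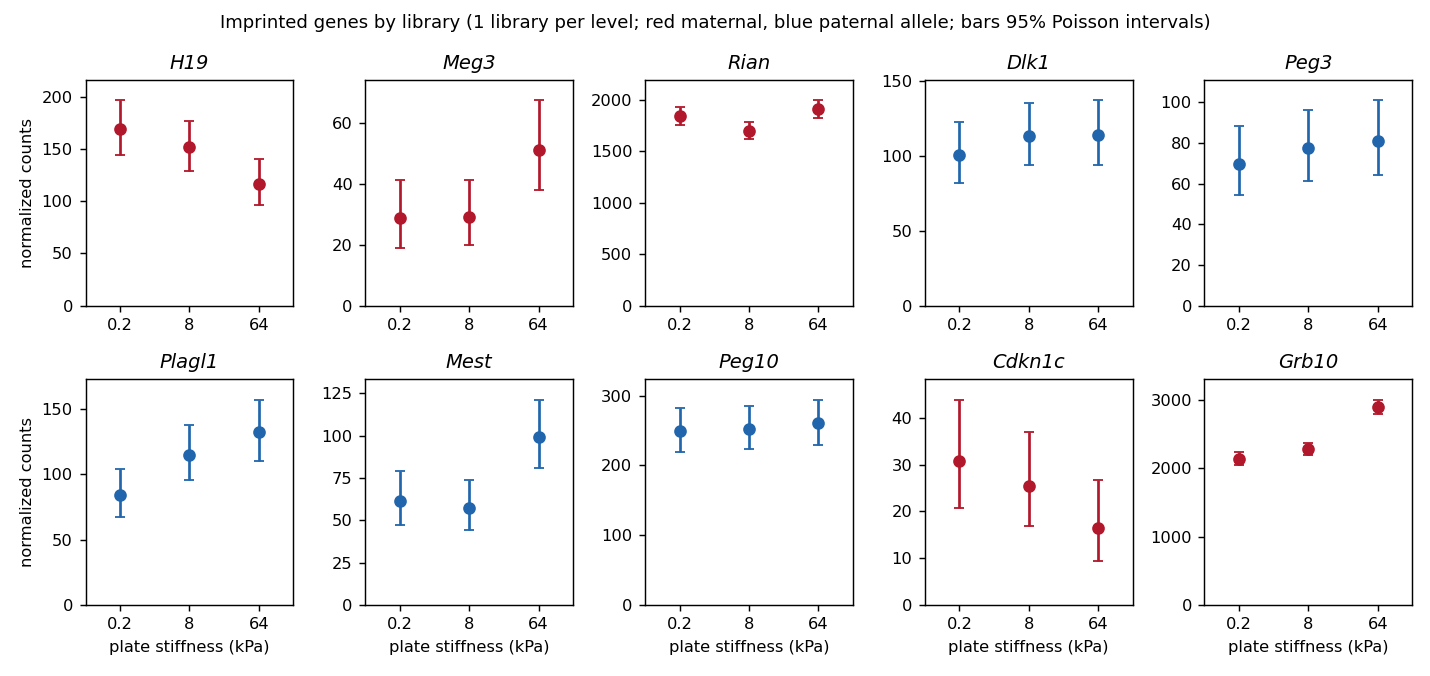
Normalized counts (vertical axes, from 0) of each gene by plate stiffness in kPa (horizontal axes), with 95% Poisson intervals of the reads as bars and 1 library per point. Red marks genes expressed from the maternal and blue from the paternal copy. Meg3 and Mest are highest in the stiff library, H19 and Cdkn1c lowest there, and Peg10 is nearly level at 249 to 260.

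Among the long noncoding RNAs, H19 is one of the most abundant RNAs of fetal mesenchyme and is transcribed beside Igf2 under a shared imprinting control region. H19 (chromosome 7, 142129262 to 142133957, minus strand of GRCm39) is read as 6 exons in the canonical model and had 169 normalized counts on the soft plate, 152 on the intermediate and 117 on the stiff. It was lowest on the stiff plate, and the Poisson intervals of the soft and stiff libraries did not overlap. Stiff to soft gave a log2 ratio of -0.53 (interval -0.89 to -0.18), and most of it fell between intermediate and stiff (-0.37, -0.74 to -0.02), whereas that of intermediate to soft was -0.16 with an interval including 0 (-0.48 to 0.17). Per 100 reads of the neighbouring Mrpl23 there were 18.5 H19 reads in the soft library (15.5 to 21.8) and 19.2 in the intermediate (16.1 to 22.8). The stiff library had 14.9 (12.1 to 18.2), with intervals that overlapped, and Mrpl23 was itself lower there, at -0.22 to soft. Igf2, the growth factor whose gene lies 70.5 kb from H19 and is expressed from the opposite parental copy, had 3, 4 and 5 reads, so that no difference in it was detectable at this depth. The stiff to soft ratio of Igf2 was 0.59, with an interval from -1.62 to 3.42.

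Meg3 and Rian are maternally expressed noncoding RNAs of the Dlk1 to Dio3 domain on chromosome 12, thought to be made as parts of one long transcription unit. Meg3 (109506877 to 109538165, plus strand, 7 exons) had 28.7 normalized counts on the soft plate, 29.2 on the intermediate and 51.3 on the stiff. The soft and intermediate values were alike and the stiff value was the highest, a ratio to soft of 0.82 (0.14 to 1.56) that rests on 28 and 50 reads. Rian (109570242 to 109628150, plus strand, 26 exons), a host of small nucleolar RNAs, stood at 1842, 1703 and 1909 normalized counts. The intermediate library was the lowest for Rian, at -0.11 to soft (-0.21 to -0.02), and the stiff to soft ratio of 0.05 had an interval including 0 (-0.04 to 0.15) and was -0.004 and -0.006 when libraries were scaled by total reads or by the upper quartile. With the length and GC trend subtracted it was 0.10 (0.01 to 0.19).

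The ratio of Meg3 to Rian within a library does not depend on how libraries are scaled. Per 100 Rian reads there were 1.56 Meg3 reads in the soft (exact 95% interval 1.03 to 2.26), 1.72 in the intermediate (1.16 to 2.44) and 2.69 in the stiff library (1.99 to 3.56). The stiff value was the highest, and its interval overlapped those of both other libraries. Mirg, another noncoding RNA of the domain, had 24, 14 and 14 reads, a stiff to soft ratio of -0.74 with an interval including 0 (-1.84 to 0.23). The annotated exons of Meg3 join to 19306 bases and those of Rian to 31981, far more than their canonical transcripts of 1656 and 3223 bases, so the same reads give different levels per kilobase under the 2 measures.

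Dlk1, a membrane and secreted relative of the Notch ligands that marks immature mesenchymal cells and holds back adipocyte formation, is the paternally expressed gene of the same domain. Dlk1 (chromosome 12, 109418749 to 109429262, plus strand, 5 exons) had 100.5, 113 and 114 normalized counts. The soft library was the lowest, but every ratio of Dlk1 had an interval including 0, with 0.18 for stiff to soft (-0.22 to 0.59) and 0.01 for stiff to intermediate (-0.38 to 0.39), the sign of which changed with the scaling. Dio3, which encodes the deiodinase that inactivates thyroid hormone at the far end of the domain, was lower in the stiff library, at 1849, 1842 and 1371 normalized counts (ratio -0.43, -0.53 to -0.33). The 3 genes of the list in this domain and Dio3 thus gave 1 higher, 1 lower and 2 within counting error between stiff and soft.

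**Figure D2:**
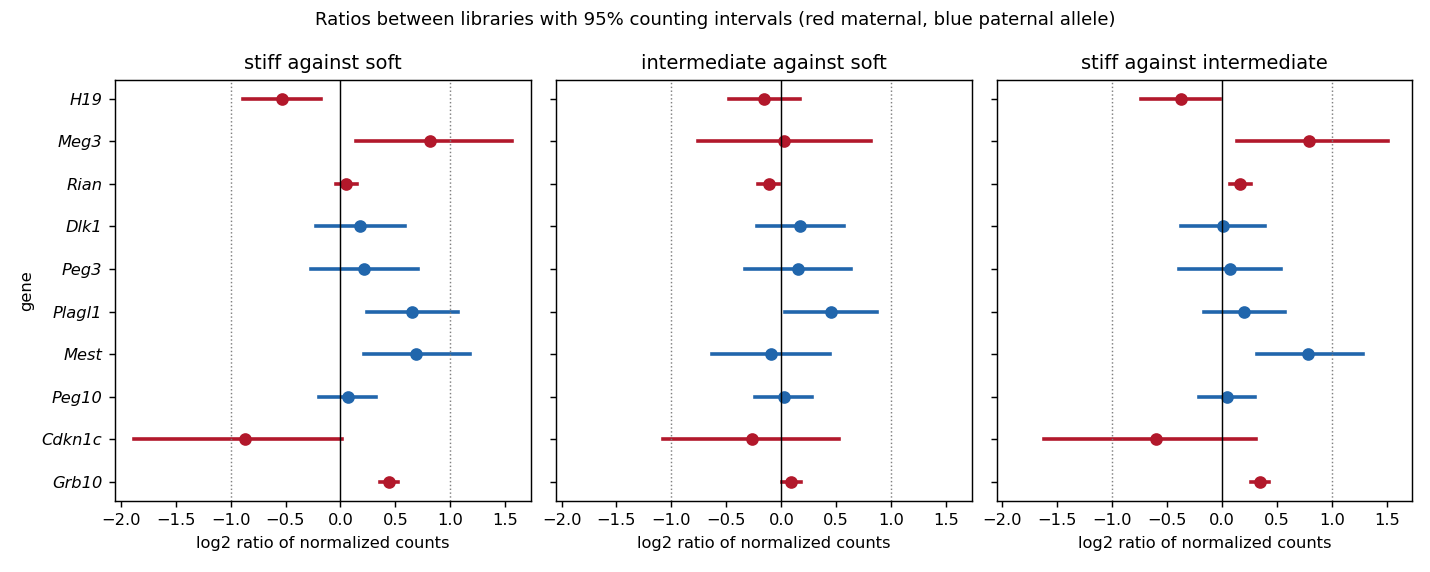
Log2 ratios of normalized counts (horizontal axes) in 3 panels (left, stiff to soft plates; middle, intermediate to soft; right, stiff to intermediate), 1 row per gene. Points are ratios, lines are 95% counting intervals, red and blue mark the maternal and paternal copy, and dotted lines lie at -1 and 1. Meg3 and Mest lie near 0 in the middle panel and at 0.79 and 0.78 in the right one, whereas Plagl1 has its larger ratio, 0.45, in the middle one.

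The list holds 2 zinc finger proteins, both paternally expressed. Plagl1, a transcription factor that activates other imprinted genes and can arrest the cell cycle, had 84.1 normalized counts on the soft plate, 115 on the intermediate and 132 on the stiff. Plagl1 (chromosome 10, 12936248 to 13007438, plus strand, 6 exons) was lowest on the soft plate and highest on the stiff, a ratio of 0.65 (0.24 to 1.07). Unlike those of Meg3 and Mest, most of its difference already lay between soft and intermediate, at 0.45 (0.04 to 0.87), and that between intermediate and stiff was 0.20 with an interval including 0 (-0.17 to 0.57). Whether the genes differ in this was not tested.

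Plagl2, the closest relative of Plagl1 and not imprinted, was also higher, at 284, 364 and 430 normalized counts (0.60, 0.38 to 0.82). Plag1, the other relative listed, was at -0.14 for stiff to soft, with an interval including 0. It was at 0.51 for intermediate to soft and at -0.65 for stiff to intermediate. The reads of Plagl1 per 100 reads of Plagl2 were 29.6 on the soft plate, 31.6 on the intermediate and 30.8 on the stiff, with intervals that overlapped. Peg3, a large zinc finger protein that regulates fetal growth and maternal behaviour (chromosome 7, 6706882 to 6733468, minus strand, 9 exons), had 69.7, 77.3 and 81.0 normalized counts. Its stiff value was the highest, but the ratio of 0.21 to soft had an interval including 0 (-0.27 to 0.71) and was 0.04 with the trend of ratios with transcript length and GC content subtracted. The neighbours of Peg3 in its imprinted domain, Zim1 and Usp29, had at most 2 reads in any library.

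Mest, a hydrolase-fold protein of the endoplasmic reticulum that accompanies expansion of fat tissue and is used as a mark of mesoderm, was highest in the stiff library, as Meg3 was. Mest (chromosome 6, 30723546 to 30752058, plus strand, 10 exons) had 61.5 normalized counts on the soft plate, 57.5 on the intermediate and 99.5 on the stiff. Its intermediate and soft values were alike (-0.10, -0.64 to 0.44), and the stiff library was higher than the soft by 0.68 (0.21 to 1.18) and than the intermediate by 0.78 (0.31 to 1.28). Mest overlaps the 3' part of Copg2, a coat protein gene on the opposite strand. The library kit marks strand, but whether the counting used it is not given in the sources used here. Copg2 had 1581, 1487 and 1467 normalized counts and was thus not higher in the stiff library, and Mest reads per 100 Copg2 reads were 3.89 (2.95 to 5.04), 3.87 (2.94 to 5.00) and 6.78 (5.46 to 8.33).

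Peg10, derived from a retrotransposon and required for the placenta, had the smallest range between libraries, relative to its level, of the 10 genes. Peg10 (chromosome 6, 4747306 to 4760517, plus strand, 2 exons) had 249, 253 and 260 normalized counts, and its ratios were 0.06 for stiff to soft (-0.20 to 0.32) and 0.02 for intermediate to soft (-0.24 to 0.28). Differences within these intervals were not detectable at this depth. Sgce, a dystrophin-associated sarcoglycan whose promoter faces that of Peg10 at a distance of 0.099 kb and which is also paternally expressed, had 1014, 889 and 975 normalized counts. Sgce was lowest on the intermediate plate, at -0.19 to soft (-0.32 to -0.06), and its stiff to soft ratio of -0.06 had an interval including 0 (-0.19 to 0.07).

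Cdkn1c encodes p57, an inhibitor of cyclin-dependent kinases and one of the strongest imprinted restraints on growth. Cdkn1c (chromosome 7, 143012069 to 143014806, minus strand, 4 exons) had 30.8 normalized counts on the soft plate, 25.5 on the intermediate and 16.4 on the stiff, or 30, 27 and 16 reads. The value was lowest on the stiff plate, but the ratio of -0.87 to soft had an interval that just included 0 (-1.88 to 0.01). The interval lay just below 0 when libraries were scaled by total reads (-1.93 to -0.04) or by the upper quartile, and with the length and GC trend subtracted, so that the side it falls on depends on the scaling. The non-imprinted inhibitor Cdkn1a was far more abundant, at 14838, 15469 and 17367 normalized counts (0.23, 0.19 to 0.26). Per 100 reads of Cdkn1a there were 0.207 reads of Cdkn1c in the soft (0.140 to 0.296) and 0.0945 in the stiff library (0.0540 to 0.153), with intervals that overlapped.

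Grb10, an adaptor that binds the insulin and IGF1 receptors and dampens their signal, was the gene of the list with the most reads. Grb10 (chromosome 11, 11880498 to 11988683, minus strand, 17 exons) had 2142 normalized counts on the soft plate, 2283 on the intermediate and 2900 on the stiff. It was higher on the stiff plate than on the intermediate by 0.34 (0.27 to 0.42) and than on the soft by 0.44 (0.36 to 0.52). The step from soft to intermediate was 0.09 (0.01 to 0.18), and its interval included 0 under each of the 3 other scalings and with the length and GC trend subtracted, where the value was 0.04. Grb10 is maternally expressed in most tissues and paternally in neurons, and the deposited counts do not separate the parental copies of any gene. Among 10612 other named genes with a mean of at least 100, those nearest to Grb10 in the pair of successive ratios were Srrt, Pum3 and Ninj1, at distances of 0.0053, 0.0078 and 0.017, over 3 libraries only.

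Levels can be compared between genes only per length. Per kilobase of joined exons in GENCODE vM39, Grb10 was the highest in every library, at 209, 223 and 283 normalized counts per kilobase, followed by H19 and Rian at 41.0 to 59.7. H19 and Rian did not differ beyond counting error in the soft library (59.4 and 57.6) or the intermediate (53.3 each), and in the stiff library Rian (59.7) was above H19 (41.0). Peg10 came next, at 37.4 to 39.1, within counting error of H19 in the stiff library, and Dlk1 at 16.7 to 18.9. The lowest were Peg3, at 5.10 to 5.93, and Meg3, at 1.49 to 2.66. Per kilobase of the canonical transcript Rian stood at 529 to 592 and Grb10 at 421 to 570, with Poisson intervals that overlapped in the stiff library. By that measure Meg3 stood at 17.3 to 31.0, above Peg3, and Mest stood at 48.7 in place of 7.62 in the soft library, so the places of Rian, Mest and Meg3 among the 10 genes depend on the transcript model.

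**Figure D3:**
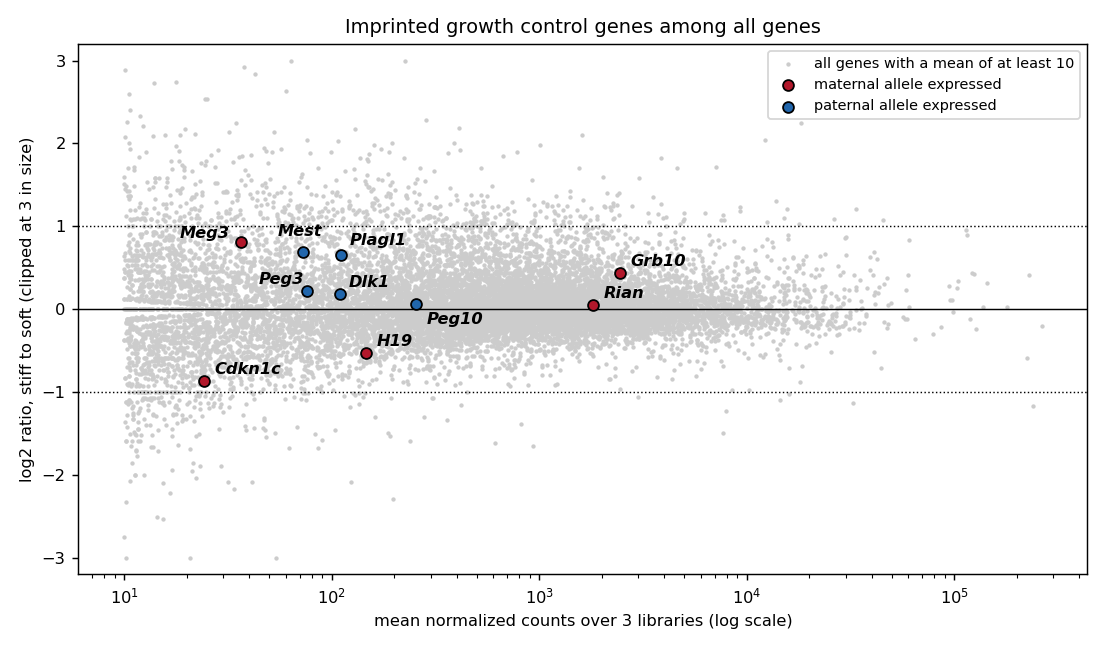
Log2 ratio of stiff to soft (vertical axis, clipped at 3 in size) against the mean normalized count over the 3 libraries (log scale) for the 14291 genes with a mean of at least 10 (grey) and the 10 imprinted genes (red maternal, blue paternal copy). All 10 lie inside the dotted lines at -1 and 1, and the lowest-count genes, Meg3 and Cdkn1c, lie farthest from 0.

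The 2 steps of stiffness were then taken apart. Between intermediate and soft plates none of the 10 genes reached 0.5 in size, as did 9.56% of the 14291 genes, and none of the 8 with a mean of 50 or more reached 1, as did 0.168% of 11873. The interval lay above 0 for Plagl1 and Grb10, 2 of 10 beside 19% of genes, and below 0 for Rian, 1 of 10 beside 11.9%. After subtraction of the length and GC trend the intervals of Plagl1, Grb10 and Rian all included 0, with values of 0.40, 0.04 and -0.09. Between stiff and intermediate plates Meg3 and Mest were higher by at least 0.5 (2 of 10, beside 7.9%) and Cdkn1c was lower (1 of 10, beside 6.14%), and none with a mean of at least 50 reached 1, as did 1.25%. Here the interval lay above 0 for Meg3, Rian, Mest and Grb10 (4 of 10, beside 23.3%) and below 0 for H19 (1 of 10, beside 19.4%). Both comparisons with the soft plate share that library, and the successive steps share the intermediate one, so they are not independent.

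Grouped by the parental copy expressed, all 5 paternally expressed genes (Dlk1, Peg3, Plagl1, Mest and Peg10) had stiff to soft ratios above 0, from 0.06 to 0.68, with a median of 0.21. The intervals of Dlk1, Peg3 and Peg10 included 0, and after subtraction of the length and GC trend the ratios of Dlk1 and Peg10 were -0.03 and -0.07 and the median of the 5 was 0.04. The 5 maternally expressed genes (H19, Meg3, Rian, Cdkn1c and Grb10) ranged from -0.87 to 0.82 with a median of 0.05 (0.10 with the trend subtracted), and 3 were above and 2 below 0. The difference between the groups was not tested. Among the genes with a mean of at least 50, the most alike pair in the successive ratios was Dlk1 and Peg3, at a distance of 0.062.

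Other genes described as imprinted, from a list of 52 found in the table, showed where these values lie. Whether they are imprinted in these cells was not measured. Of 27 with a mean of at least 50, 10 had stiff to soft ratios above 0 and 17 below, with a median of -0.06 (-0.14 over the 26 with a length when the length and GC trend was subtracted), and 1 reached 1 in size, beside 3.6% of all genes. That was Nnat (neuronatin, a small membrane protein of the endoplasmic reticulum), with 200, 126 and 46.1 normalized counts (-2.09, -2.62 to -1.64). The other lowest were Mcts2 at -0.63, Slc38a4, an amino acid transporter, at -0.58, Dcn, the matrix proteoglycan decorin, at -0.44, and Dio3 at -0.43. The highest were Osbpl5 at 0.49, Igf2r, the receptor that clears IGF2, at 0.44, Trappc9 at 0.36, Gnas at 0.28 and Zrsr1 at 0.21. With the length and GC trend subtracted Igf2r was at -0.06, Trappc9 at 0.07, Gnas at 0.02, Osbpl5 at 0.29 and Dcn at -0.27, so the high end of this list depends on that trend, while Mest and Plagl1 stood at 0.76 and 0.60.

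**Figure D4:**
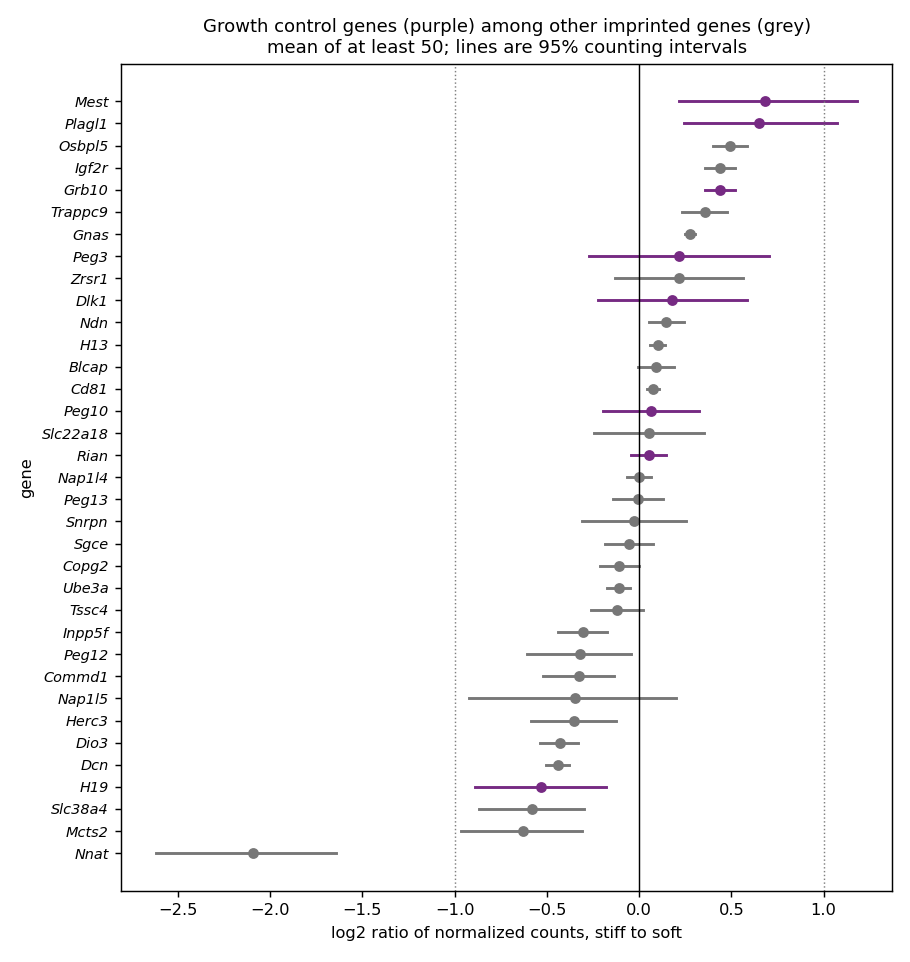
Log2 ratio of stiff to soft (horizontal axis) for the 8 growth control genes (purple) and 27 other imprinted genes (grey) with a mean of at least 50, ordered by ratio, with 95% counting intervals as lines. Mest and Plagl1 stand at the top at 0.68 and 0.65, H19 near the bottom, and Nnat alone beyond -1.

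Other genes near the 10 on the chromosome were read in the same way. Some of them, such as Tfpi2, Pon2 and Cobl, have been described as imprinted in the mouse in extraembryonic tissue. Of 20 such neighbours with a mean of at least 50, 8 had stiff to soft ratios above 0 and 12 below, with a median of -0.04 (-0.02 when the trend was subtracted). Nap1l4 is counted both here and among the other imprinted genes. Beside H19, Mrpl23, a mitochondrial ribosomal protein gene 34.8 kb away, was at -0.22, and Lsp1, a leukocyte gene 80.7 kb away, at 0.70. Beside Grb10, Ikzf1, a factor of blood cells, was at 0.80 and Fignl1 at -0.38. Beside Mest, Cep41 was at -0.19, and beside Plagl1, Ltv1 and Phactr2 were at 0.22 and 0.32 and Fuca2 at -0.22. The only one of the 20 past 1 in size was Dync1h1, the heavy chain of dynein, 940 kb from Rian, at 1.23 as deposited and 0.19 with the length and GC trend subtracted. Cars was at 0.29, Zfp772 and Wdr25 at -0.35 each and Tfpi2 at -0.33. With the trend subtracted Mrpl23 was at -0.11, Fignl1 at -0.24, Cep41 at -0.13, Cars at 0.05 and Tfpi2 at -0.15.

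**Figure D5:**
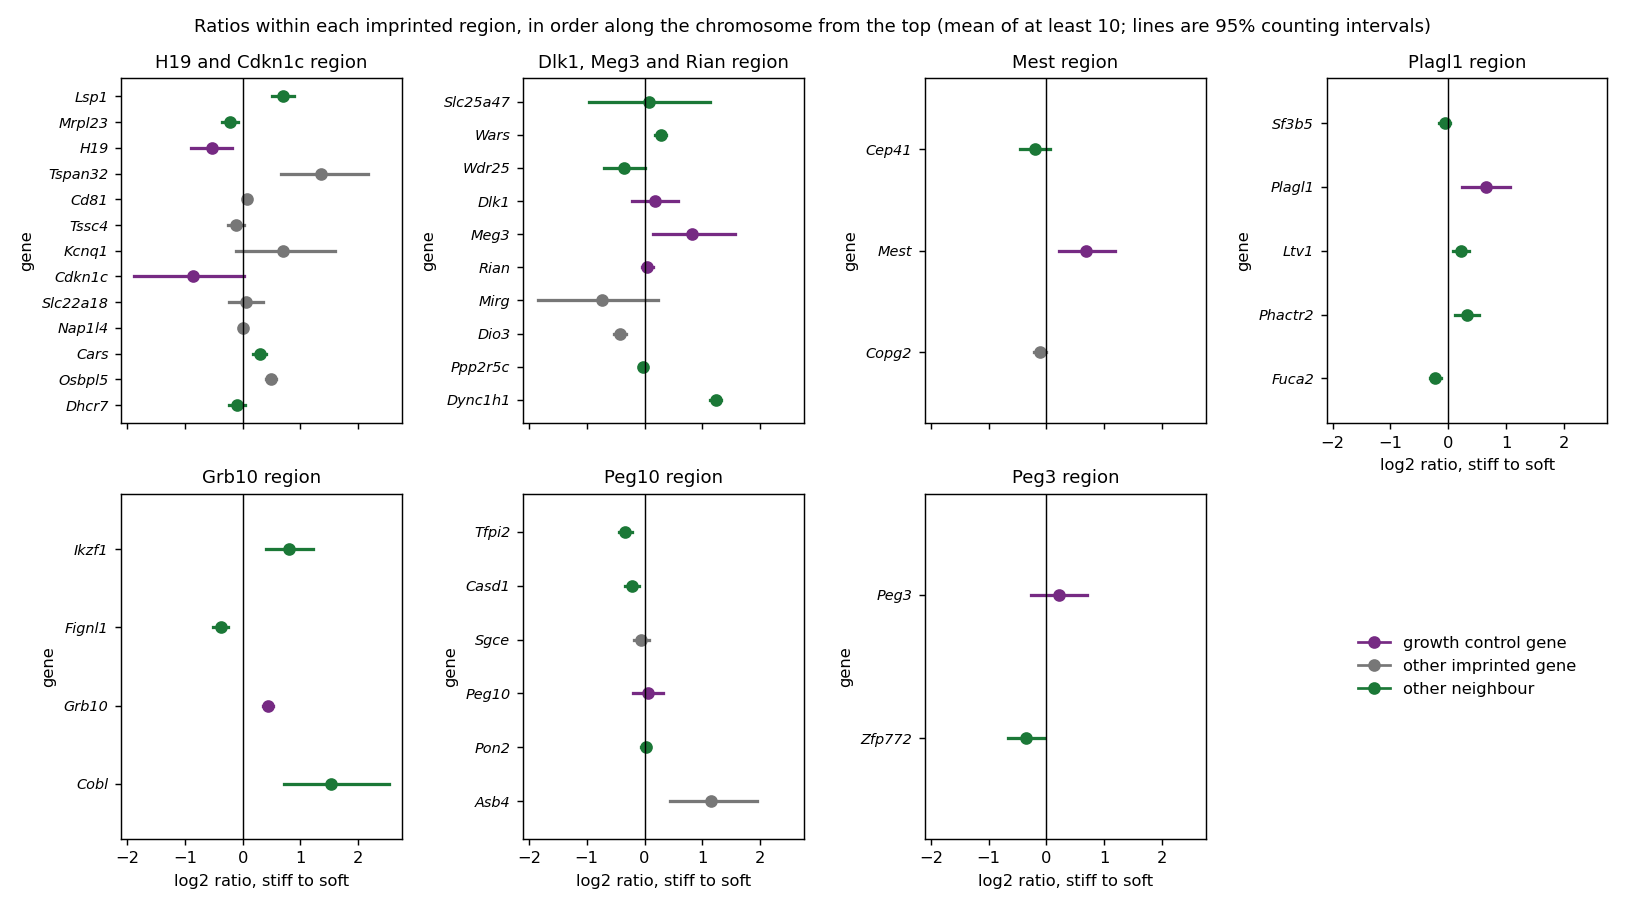
Log2 ratio of stiff to soft (horizontal axes) within each imprinted region, with genes of a mean of at least 10 in order along the chromosome, 95% counting intervals as lines, the growth control genes in purple, other imprinted genes in grey and other neighbours in green. Neighbours do not share one direction: beside H19 at -0.53, Mrpl23 lies at -0.22 and Lsp1 at 0.70.

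The partners of these proteins gave the setting in which they act. Of 6 relatives, receptors and substrates of Grb10 with a mean of at least 50, 5 had stiff to soft ratios above 0, with a median of 0.27. Igf1r, the IGF1 receptor, was at 0.87 (1031, 1353 and 1883 normalized counts) and Irs2, an adaptor downstream of it, at 0.67. With the length and GC trend subtracted 3 of the 6 were above 0, with a median of 0.04, and Igf1r was at 0.25, Irs2 at -0.03 and Irs1, another such adaptor, at -0.24 in place of 0.23. Among Dlk1 relatives and Notch receptors, Notch2 was at 0.93 and Notch1 at 0.64, which became 0.24 and -0.11 under that subtraction, Notch3 was at -0.05 and became -0.83, and Dlk2 was at -0.45 (-0.82 to -0.10). Of the 6 other cyclin-dependent kinase inhibitors, 2 were above 0 and 4 below (3 and 3 with the trend subtracted), the lowest being Cdkn2c at -0.36 and Cdkn2d at -0.24. Of 9 kinases and cyclins they bind, 3 were above and 6 below, with Ccne2 at -0.42, Ccna2 at -0.33 and Cdk6 at 0.49 (0.24 with the trend subtracted).

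Genes that maintain imprints through cell division had ratios on both sides of 0. Of 10 with a mean of at least 50, 5 had stiff to soft ratios above 0 and 5 below, with a median of 0.01 and a range from -0.14 to 0.72. The highest was Dnmt1, the DNA methyltransferase that copies methylation at replication, with 572, 805 and 942 normalized counts (0.72, 0.57 to 0.87), or 0.45 with the length and GC trend subtracted. That subtraction brought the list to 3 above 0 and 7 below, with a median of -0.11, and moved Dnmt3a, a methyltransferase that sets new methylation, from 0.15 to -0.44 and Ehmt2, a histone methyltransferase, from 0.04 to -0.30. Trim28, the corepressor recruited to imprinted regions, was at -0.03 (-0.22 with the trend subtracted), and Zfp57, which recruits it, had 28, 23 and 28 reads. DNA methylation itself was not measured.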

How the data were processed

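RNA of tdTomato-sorted ankle synovium cells was measured in 1 library at each of 3 stiffness levels. Per the submitters' processing notes, STAR 2.7.9a, featureCounts of Subread 2.0.1 and DESeq2 1.34.0 were used with GRCm39. The annotation and the strand setting are not given in the sources used here. The signal deposited by the authors is, per gene and library, a read count scaled by a library size factor. The 3 deposited files were identical, and each column bears 1 sample's title. All values (100% in each column, within 0.001) were whole multiples of the least value above 0 in the column, which gave back whole reads. A count model needs replicates and was not run.

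Log2 ratios used a pseudocount of 1. Calls required a log2 ratio of 1 and a mean of 50, and intervals and the medians of the 10 genes and of all genes a mean of 10. Medians and counts of the other lists are over genes with a mean of at least 50. Positions, exons and lengths came from GENCODE vM39 (GRCm39) by symbol, and promoters and microRNAs from RefSeq (GRCm38.p6), whose coordinates are not comparable with GRCm39. The trend with length and GC content was fitted locally over the 300 nearest of 13996 genes. Its subtraction from list medians other than that of all 10 genes, and intervals under other scalings, were chosen after seeing the data. Calls, intervals and fit were tested on simulated data. The simulated counts held counting error only, so that test says nothing about spread between cultures. The genes, gene lists and thresholds were chosen with earlier results of these data known. All 10 genes are described. From the other lists, genes past the threshold and up to 5 highest and 5 lowest with a mean of at least 50 are named, others after their values were seen. Tools were scipy 1.17.1, numpy 2.4.6, pandas 2.3.3 and matplotlib 3.10.9 under Python 3.11.15.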

Additional observations from a re-analysis of the deposited data

How the results depend on the processing

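Of 180 values of the 30 ratios of the 10 genes under 6 alternatives (2 pseudocounts, 3 scalings and subtraction of the length and GC trend), 179 stayed inside the counting interval of the deposited values. The exception was Grb10 between stiff and soft, at 0.34 with the trend subtracted. Of the 30 ratios, 7 changed sign under at least 1 alternative, all of them of Rian, Dlk1, Peg10 or Meg3 and of 0.18 or less in size. The ratios of Meg3, Mest, Plagl1, Grb10, H19 and Cdkn1c between stiff and soft kept their sign under all 6. At a threshold of 0.5, 3, 0 and 1 of the 8 genes with a mean of at least 50 were called between stiff and soft, intermediate and soft, and stiff and intermediate, beside 1850, 546 and 1050 of 11873 genes (15.6%, 4.6% and 8.84%). With a minimum mean of 10 as well, chosen after seeing the data, 5, 0 and 3 of 10 were called, beside 20.3%, 9.56% and 14% of 14291 genes. In the same order, counts of all genes were 5827, 3646 and 3904 without a minimum mean, 822, 215 and 451 at a minimum of 10, 238, 8 and 72 at 200, and 17, 1 and 8 at a threshold of 2. Between intermediate and soft, 10 genes passed with a pseudocount of 10 and 13 with the trend subtracted, beside 20 as deposited. Apart from the thresholds and minimum means, which admit more or fewer genes by construction, the cause was not tested. No paired analysis was possible because each level has 1 library, and for that reason no replicate was left out. Depth limits Cdkn1c (16 to 30 reads) and Meg3 (28 to 50 reads) most.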

Other observations

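Several imprinted or neighbouring genes with a mean below 50 differed by more than 1 on the log2 scale between stiff and soft, and are named here after their values were seen. Lowering the minimum mean from 50 to 10 raised the share of all genes past 1 in size from 3.6% to 5.75%. With the lower minimum, 2 of 34 other imprinted genes lay above 1 and 2 below -1, Nnat included. Of 22 neighbours, 2 lay above 1 and 0 below -1, Dync1h1 included. Whether these lists differ from all genes was not tested. Airn, the noncoding RNA that runs antisense to Igf2r on chromosome 17 and silences it on the paternal copy, had 27 reads on the soft plate, 20 on the intermediate and 8 on the stiff (-1.64, interval -3.10 to -0.58). Igf2r, on the other strand, had 2112, 2524 and 2862 normalized counts, and without knowledge of the strand setting reads of the overlapping parts cannot be told apart. Tspan32, a tetraspanin of blood cells in the domain that also holds Cdkn1c, had 22, 26 and 58 reads (1.36, 0.67 to 2.18). Asb4, 623 kb from Peg10, had 23, 33 and 52 reads (1.14, 0.44 to 1.95), and Cobl, an actin nucleator 198 kb from Grb10, had 15, 22 and 45 reads (1.53, 0.72 to 2.54). At this depth single reads weigh on each of these ratios, and the macrophage markers were 2.15 times as high in the stiff as in the soft library.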
